A study of Mus musculus with 20 samples.

Results

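Heat shock proteins and their partner chaperones were taken as the genes whose symbols begin with Hsp90, Hspa, Hspb, Hspd, Hspe, Hsph, Dnaja, Dnajb, Dnajc, Ahsa, Cct, Bag or Hsf followed by a number where the family uses one. Of the 24528 genes in the deposited table, 95 symbols fitted. The endoplasmic reticulum genes Hspa5 and Dnajb9 were excluded by name and Dnajb8 was at 0 in every library, which left 92 members. Of these, 91 passed the filter on floor values, and only the J-domain gene Dnajc5g did not. The rule reads symbols alone and no measured value, but it was set with earlier results of these data known. Hspb11, a cilium protein, and Hsf2bp, a partner of Hsf2, fitted by their letters and were kept apart from the families.

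Total RNA was sequenced from neocortex and hippocampus of 18-month-old mice. TDP-43KQ/KQ mice carry, on both alleles of the endogenous Tardbp gene, the K145Q change that mimics acetylation of the RNA-binding protein TDP-43. It was introduced with CRISPR/Cas9 in C57BL/6J zygotes, and the mutation is present in every cell type. The line was kept from a founder through heterozygous breeding. TDP-43wt mice carry the unedited gene, and the labels name no treatment for either genotype. The neocortex gave 6 TDP-43KQ/KQ libraries (3 females, 3 males) and 5 TDP-43wt libraries (3 females, 2 males), and the hippocampus gave 5 TDP-43KQ/KQ libraries (3 females, 2 males) and 4 TDP-43wt libraries (3 females, 1 male). The question asked here is how the chaperone genes differ by genotype and by region.

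Chaperones bind unfolded or partly folded proteins and keep them from aggregating. HSP70 proteins take up clients with the help of J-domain proteins (DNAJ), BAG proteins release them, HSP90 finishes the folding of many signalling proteins, small heat shock proteins hold unfolded chains without using ATP, and the CCT ring folds actin and tubulin. Heat shock factors (HSF) switch many of these genes on under protein stress, while other members, such as Hspa8 and Hsp90ab1, are made in unstressed neurons at all times.

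The values are on a log2-like scale on which each gene is set to mean 0 over the neocortex TDP-43KQ/KQ libraries, so they give differences between libraries and not levels of expression. The read depth behind each value is unknown, and low genes cannot be told from high ones. Sex and litter effects had been subtracted from the values. As a result, the neocortex TDP-43wt M1 library, alone in its litter, sat at its group mean for every gene. It cannot break a separation of the genotypes, so non-overlap in neocortex rests on the other TDP-43wt libraries. The deviations of the TDP-43KQ/KQ F2 library in the 2 regions mirrored each other (r = -1). A separation in both regions is therefore not 2 independent results. For the same reason, the SDs given here understate the spread between mice. Tests used 1 limma model over all 20 libraries with sex and litter as terms, and a gene was called at an adjusted p (Benjamini-Hochberg over 17863 genes) under 0.05. Tardbp itself, which the edit leaves in place, was higher in TDP-43KQ/KQ by 1.00 ± 0.089 (SE) on the log2 scale in neocortex and by 0.83 ± 0.095 in hippocampus, with limma adjusted p of 0.000117 and 0.00163. Markers of dentate and CA neurons averaged 1.58 to 1.77 in the 9 hippocampal libraries and -0.055 to 0.142 in the 11 neocortical ones. Some libraries stood apart for the chaperones. TDP-43wt F2 was the highest TDP-43wt library for 44 of 91 members in neocortex and 53 of 91 in hippocampus, against 30.6% and 35.0% of all genes tested. TDP-43KQ/KQ F1 was the lowest TDP-43KQ/KQ library in neocortex for 31 of 91 members, against 21.0% of all genes. Among the TDP-43wt libraries, F1 was the lowest in neocortex for 36 of 91 members, against 27.8% of all genes, and F3 the lowest in hippocampus for 38 of 91, against 23.6%.

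Promoters of 4 members discussed below, picked by hand, are shown because heat shock factors bind inverted repeats of GAA. Windows of 250 bases before and 50 after each start (RefSeq, GRCm38.p6) were found for 74 members. The pair of units GAANNTTC, a palindrome and so the same on either strand, lay in 20.2% of the members' 94 windows (17 genes) and in 7.86% of the 32851 windows of all genes. A run of 3 units (GAANNTTCNNGAA or TTCNNGAANNTTC), which contains the pair, lay in 6.38% of the members' windows (Dnajb6, Hspd1, Hspe1 and Hsph1) and in 0.603% of all. Some of these windows cover the same bases: Dnajb6 and Hsph1 have 2 overlapping windows each, and those of Hspd1 and Hspe1 overlap. Counted by gene, the run lay in 4 of 74 members and in 179 of 27025 genes. Below, each window runs 5′ to 3′ on the gene's own strand with GAANNTTC in capitals. Ahsa2 (chr11:23497990-23498289, minus strand) has 0 matches, Hspb1 (chr5:135887669-135887968, plus strand) has 2, Hspb8 (chr5:116422815-116423114, minus strand) has 1 and Hspa1b (chr17:34959189-34959488, minus strand) has 1. The 4 are not a fair sample of the members named below. The windows of Ahsa1, Dnajb1, Dnajb4 and Dnajc13 lack GAANNTTC, while Bag3, Hspa1a and others have it. A match says only that these letters are present.
Ahsa2: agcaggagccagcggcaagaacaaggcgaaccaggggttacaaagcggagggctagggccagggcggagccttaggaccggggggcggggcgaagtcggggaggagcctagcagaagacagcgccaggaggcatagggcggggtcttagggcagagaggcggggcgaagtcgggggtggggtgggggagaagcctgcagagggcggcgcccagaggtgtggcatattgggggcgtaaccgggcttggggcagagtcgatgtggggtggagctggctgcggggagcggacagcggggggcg
Hspb1: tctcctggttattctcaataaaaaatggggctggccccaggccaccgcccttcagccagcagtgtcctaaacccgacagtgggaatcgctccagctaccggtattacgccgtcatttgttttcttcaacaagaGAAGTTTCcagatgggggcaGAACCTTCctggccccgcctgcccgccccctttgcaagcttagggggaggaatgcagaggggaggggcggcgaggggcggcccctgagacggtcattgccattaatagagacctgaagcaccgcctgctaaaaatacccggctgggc
Hspb8: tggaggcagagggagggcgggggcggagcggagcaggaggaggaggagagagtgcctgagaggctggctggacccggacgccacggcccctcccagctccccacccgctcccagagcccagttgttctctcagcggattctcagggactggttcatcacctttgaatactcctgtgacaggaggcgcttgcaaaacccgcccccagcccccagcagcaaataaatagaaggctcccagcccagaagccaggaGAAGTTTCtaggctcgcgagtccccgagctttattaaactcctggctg
Hspa1b: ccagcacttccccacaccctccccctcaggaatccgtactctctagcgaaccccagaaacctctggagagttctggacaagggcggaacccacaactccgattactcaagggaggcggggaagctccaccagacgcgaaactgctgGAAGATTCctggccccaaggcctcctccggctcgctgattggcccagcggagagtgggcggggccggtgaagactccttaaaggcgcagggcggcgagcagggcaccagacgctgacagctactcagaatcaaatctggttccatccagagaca

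By genotype, 1 of 91 chaperone genes was called, and it was the same gene in both regions: Ahsa2, an activator that binds HSP90 and speeds its ATPase cycle. Of all genes tested, 0.224% were called in neocortex and 0.386% in hippocampus, and a single called member is too few to set its share against theirs. The gene lies on chromosome 11 at 23487882 to 23498045 (GRCm38.p6, minus strand). In neocortex, Ahsa2 ran from -0.0559 to 0.0778 with a median of 0.0051 over the 6 TDP-43KQ/KQ libraries, against -0.292, -0.25, -0.254, -0.257 and -0.232 in TDP-43wt F1, F2, F3, M1 and M2. All 6 mutants were above all 5 controls, of which M1 is fixed at the group mean. The separation thus rests on F1, F2, F3 and M2, which lay between -0.292 and -0.232. In hippocampus, Ahsa2 was at 0.273, 0.21, 0.159, 0.214 and 0.277 in TDP-43KQ/KQ F1, F2, F3, M1 and M2, against 0.0313, -0.0906, 0.0238 and -0.0585 in TDP-43wt F1, F2, F3 and M1. Again the groups did not overlap. Ahsa2 rose by 0.26 ± 0.045 (SE) on the log2 scale in neocortex (1.20-fold, limma adjusted p = 0.034) and by 0.25 ± 0.048 in hippocampus (1.19-fold, limma adjusted p = 0.0364), and the 2 increases differed by -0.01 ± 0.061.

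**Figure D1:**
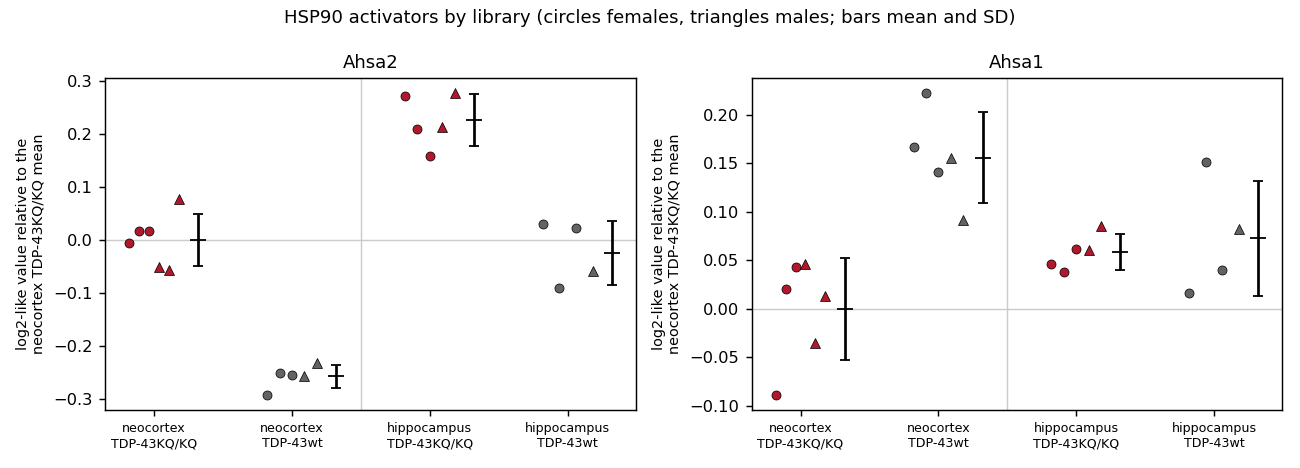
Values of Ahsa2 and Ahsa1 in each of the 20 libraries (y axis, log2-like value relative to the neocortex TDP-43KQ/KQ mean; x axis, the 4 groups; circles females, triangles males, bars mean and SD). Ahsa2 has every TDP-43KQ/KQ library above every TDP-43wt library within each region, while Ahsa1 separates the genotypes in neocortex alone, in the opposite direction.

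The size of the Ahsa2 increase changed little with the samples used, but its call rested on many of them. Leaving out single libraries gave 0.24 to 0.29 in neocortex (limma adjusted p 0.0181 to 0.148) and 0.22 to 0.27 in hippocampus (0.0251 to 0.301). The call was kept in 9 of 20 such fits for neocortex and in 7 of 20 for hippocampus. These fits are not 20 separate checks. Neocortex TDP-43wt M1 is alone in its litter, so its loss returns the main fit. The TDP-43KQ/KQ F2 libraries share their litter with no other, and the loss of either gave the same fit (0.25 in neocortex, limma adjusted p = 0.0505). For neocortex it was lost without neocortex TDP-43wt F1, F2, F3 or M2, without neocortex TDP-43KQ/KQ F1, F2, F3 or M2, and without hippocampus TDP-43KQ/KQ F1 or F2 or TDP-43wt M1. For hippocampus it was lost without neocortex TDP-43wt F1, F2, F3 or M2, without neocortex TDP-43KQ/KQ F1 or M2, without any of the 4 hippocampal TDP-43wt libraries, and without hippocampus TDP-43KQ/KQ F1, M1 or M2. Fitted on each region alone, the increase was 0.24 in neocortex (limma adjusted p = 0.178) and 0.30 in hippocampus (adjusted p = 0.263). In those single-region fits no member was called in either region, against 0.0382% and 0% of all genes, and 16 of 91 members in neocortex and 10 of 91 in hippocampus had an unadjusted p under 0.05, against 13.7% and 12.1% of all genes. The 6 females agree in number and litter between regions, but the labels do not say that they are the same mice. With each such pair joined as a replicate block in limma, Ahsa2 was 0.26 in neocortex (adjusted p = 0.0365) and 0.24 in hippocampus (adjusted p = 0.0571, no longer called). Ahsa2 overlaps Usp34 and 1700030C12Rik on the opposite strand and the miRNA gene Gm47279 on its own, and how reads were assigned by strand is not given in the sources used here. Usp34 itself differed by 0.06 ± 0.062 in neocortex and by -0.01 ± 0.066 in hippocampus (limma adjusted p 0.643 and 0.95).

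Ahsa1, the second HSP90 activator (chromosome 12, 87266415 to 87273998), ran the other way in neocortex. Its values there were -0.0884 to 0.0466 with a median of 0.017 over the 6 TDP-43KQ/KQ libraries, against 0.167, 0.222, 0.141, 0.155 and 0.0918 in TDP-43wt F1, F2, F3, M1 and M2. All mutants lay below all controls, but the difference of -0.16 ± 0.045 did not pass the test (limma adjusted p = 0.168). In hippocampus the TDP-43KQ/KQ libraries held 0.0376 to 0.0852 and the TDP-43wt libraries 0.0165 to 0.151, with a difference of -0.01 ± 0.048. Thus the 2 activators gave opposite values in neocortex, but the genotype effect of Ahsa1 did not differ between the regions after adjustment (0.14 ± 0.061, unadjusted p = 0.0348 and adjusted 0.804 in the limma model).

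Looked at as a whole, the members other than Ahsa2 showed no called difference in either region. At an unadjusted p under 0.05 in the limma model, 20 of 91 members (22.0%) stood out in neocortex, 9 above and 11 below TDP-43wt, against 14.4% of all genes, and 14 of 91 (15.4%) in hippocampus, 10 above and 4 below, against 14.8% of all genes. The median member differed by -0.027 in neocortex, with 38 above 0 and 53 below, and by -0.004 in hippocampus, with 44 above and 47 below; all genes had medians of -0.002 and -0.001. Without neocortex TDP-43KQ/KQ F3 or M1 the neocortical median was -0.050 (35 above, 56 below) or -0.049 (32 above, 59 below). The hippocampal median ran from -0.028 without hippocampus TDP-43wt F3 to 0.026 without TDP-43wt F2, so it has no settled sign. TDP-43KQ/KQ libraries were all above TDP-43wt for 6 members in neocortex (4.29% of all genes tested were so) and for 6 in hippocampus (4.19%), and Ahsa2, Dnajb4 and Dnajc13 were so in both (0.935% of all genes). They were all below for 7 members in neocortex (4.34% of all genes) and 3 in hippocampus (5.45%), with Dnajc5 so in both (1.21%). As shares of the 91 members, 6.59% were all above in each region, 7.69% were all below in neocortex and 3.30% in hippocampus.

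**Figure D2:**
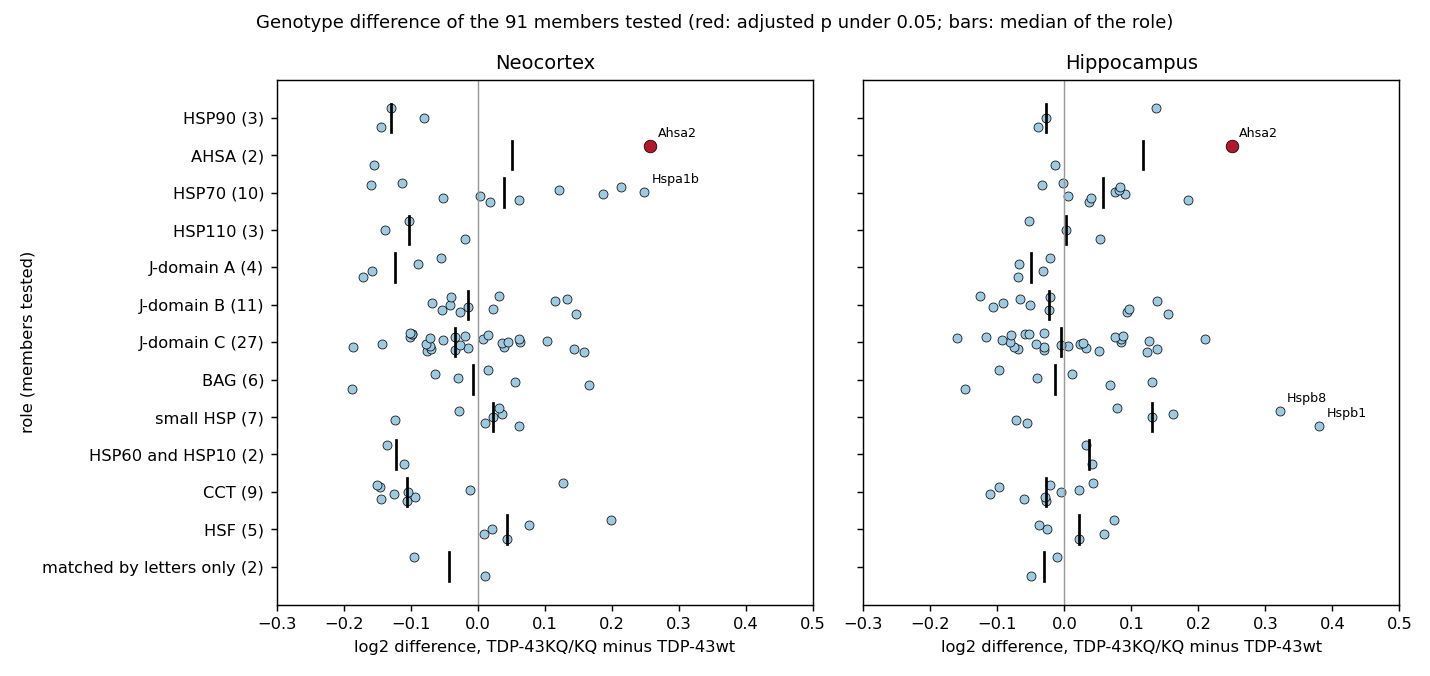
Genotype difference of the 91 tested members (x axis, log2 difference TDP-43KQ/KQ minus TDP-43wt in neocortex and in hippocampus; y axis, chaperone role; bars, median of the role; red, adjusted p under 0.05). Ahsa2 alone is red, the HSP90, HSP110, J-domain A and CCT members of the neocortex lie mostly left of 0, and Hspb1 and Hspb8 lie farthest right in hippocampus.

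The HSP90 chaperones were below TDP-43wt in neocortex for 3 of 3 genes, none of them called. Hsp90aa1, the stress-inducible cytosolic form, held -0.108 to 0.102 with a median of -0.00318 in TDP-43KQ/KQ, against 0.0349, 0.264, 0.159, 0.145 and 0.123 in TDP-43wt F1, F2, F3, M1 and M2. The groups overlapped through TDP-43wt F1, and the difference was -0.15 ± 0.072 (limma adjusted p = 0.363). Hsp90ab1, the constitutive form, differed by -0.08 ± 0.041 (adjusted p = 0.373, limma) and Hsp90b1, the endoplasmic reticulum form, by -0.13 ± 0.071 (adjusted p = 0.399). In hippocampus the same genes differed by -0.04 ± 0.077, -0.03 ± 0.044 and 0.14 ± 0.076. The value of Hsp90b1 thus changed sign between regions, with an interaction of 0.27 ± 0.097 that had an unadjusted p of 0.0153 and an adjusted p of 0.804 in limma. Of all genes tested 0% were called for a difference of the genotype effect between regions, 1041 had an unadjusted p under 0.05, and among the members 4 did: Hspb8, Hsp90b1, Ahsa1 and Hspd1. Hsp90aa1 shares 51.4% of its 31-base stretches with other genes, mostly pseudogenes, so its values are less certain. The median of the HSP90 genes in neocortex was -0.130, and it was -0.071 without TDP-43KQ/KQ F1.

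Among 10 HSP70 genes, 7 were above TDP-43wt in neocortex and 8 in hippocampus, and 0 were called. Hspa1a and Hspa1b, neighbouring genes on chromosome 17 for the stress-inducible HSP70, gave larger differences in neocortex than most members. Hspa1a held -0.078 to 0.103 with a median of -0.0171 in the 6 neocortex TDP-43KQ/KQ libraries, against -0.152, -0.187, -0.188, -0.187 and -0.221 in TDP-43wt F1, F2, F3, M1 and M2. The groups did not overlap, but the difference of 0.19 ± 0.063 did not pass (limma adjusted p = 0.225). Hspa1b, whose promoter is shown above, held -0.107 to 0.145 with a median of -0.00594 in TDP-43KQ/KQ, against -0.0606, -0.378, -0.244, -0.249 and -0.312 in TDP-43wt. Here TDP-43wt F1 was inside the range of the mutants, and the difference was 0.25 ± 0.081 (limma adjusted p = 0.214). In hippocampus, both genes overlapped between genotypes, with differences of 0.09 ± 0.067 for Hspa1a and 0.08 ± 0.087 for Hspa1b. The 2 transcripts share 65.4% (Hspa1a) and 68.0% (Hspa1b) of their 31-base stretches, nearly all with each other, so reads may have been divided between them and they are not separate evidence.

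Other HSP70 genes differed in sign. Hspa2, best known from male germ cells and also made in brain, differed by 0.21 ± 0.072 in neocortex (limma adjusted p = 0.223) and by 0.08 ± 0.077 in hippocampus. Hspa8, the constitutive HSP70 of neurons, held -0.0952 to 0.0728 with a median of 0.0273 in neocortex TDP-43KQ/KQ, against 0.119, 0.227, 0.182, 0.16 and 0.111 in TDP-43wt F1, F2, F3, M1 and M2. Every mutant was below every control, and the difference of -0.16 ± 0.054 did not pass (limma adjusted p = 0.228). In hippocampus Hspa8 differed by -0.03 ± 0.058, and 43.5% of its 31-base stretches recur in other genes, mostly pseudogenes. The HSP110 genes, which exchange the nucleotide of HSP70, were below TDP-43wt in neocortex for 3 of 3 members, among them Hsph1 at -0.10 ± 0.043 (adjusted p = 0.305) and, named after its values were seen, Hspa4l at -0.14 ± 0.049 (adjusted p = 0.245, limma). In hippocampus Hsph1 differed by -0.05 ± 0.046.

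J-domain proteins, which deliver clients to HSP70 and start its ATPase, made up 42 tested members, and 0 were called. All 4 class A genes were below TDP-43wt in both regions, with a median of -0.123 in neocortex and -0.050 in hippocampus. Dnaja1, the inducible class A member, held -0.095 to 0.0584 with a median of 0.0262 in neocortex TDP-43KQ/KQ, against 0.124, 0.306, 0.208, 0.171 and 0.0461 in TDP-43wt F1, F2, F3, M1 and M2. Only TDP-43wt M2 overlapped the mutants, and the difference was -0.17 ± 0.068 (limma adjusted p = 0.289), against -0.07 ± 0.073 in hippocampus. The neocortical median of class A was -0.068 without TDP-43KQ/KQ F1. The hippocampal one was -0.014 without TDP-43KQ/KQ F1 and -0.016 without TDP-43wt F2, each with 3 of 4 genes below, and -0.088 without TDP-43wt F3 and -0.085 without neocortex TDP-43KQ/KQ M1.

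Of 11 class B genes, 5 were above TDP-43wt and 6 below in neocortex with a median of -0.015, and 4 above and 7 below in hippocampus with a median of -0.023. Over single-library losses these medians ran from -0.025 to 0.027 and from -0.039 to 0.001. Dnajb1 and Dnajb4, class B co-chaperones that heat shock induces, were above TDP-43wt in both regions. Dnajb4 held -0.0471 to 0.065 with a median of 0.00731 in neocortex TDP-43KQ/KQ, against -0.201, -0.0727, -0.0881, -0.115 and -0.0994 in TDP-43wt. In hippocampus it held -0.156, -0.206, -0.191, -0.241 and -0.163 in TDP-43KQ/KQ F1, F2, F3, M1 and M2, against -0.351, -0.301, -0.31 and -0.357 in TDP-43wt F1, F2, F3 and M1. The genotypes did not overlap in either region, with differences of 0.12 ± 0.042 in neocortex (limma adjusted p = 0.25) and 0.14 ± 0.044 in hippocampus (limma adjusted p = 0.188). Dnajb1 differed by 0.15 ± 0.064 in neocortex, where the groups did not overlap, and by 0.15 ± 0.069 in hippocampus, where they did (limma adjusted p 0.324 and 0.316). Dnajb7, a class B gene of few known roles, differed by 0.03 ± 0.060 in neocortex and by -0.13 ± 0.064 in hippocampus (limma adjusted p = 0.83 and 0.379).

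Among 27 class C genes, Dnajc13 and Dnajc5 separated the genotypes in both regions without being called. Dnajc13 acts on early endosomes. It held -0.0486 to 0.0625 with a median of -0.0103 in neocortex TDP-43KQ/KQ, against -0.164, -0.238, -0.111, -0.144 and -0.0643 in TDP-43wt, and in hippocampus it held -0.0862 to 0.0883 in TDP-43KQ/KQ, against -0.192 to -0.126 in TDP-43wt. Its differences were 0.14 ± 0.050 and 0.14 ± 0.053 (limma adjusted p 0.234 and 0.258). Dnajc5 encodes cysteine string protein, a chaperone of synaptic vesicles. It held -0.046 to 0.0666 with a median of -0.0218 in neocortex TDP-43KQ/KQ, against 0.0973, 0.138, 0.0814, 0.101 and 0.0889 in TDP-43wt, and in hippocampus -0.243, -0.166, -0.17, -0.162 and -0.188 in TDP-43KQ/KQ F1, F2, F3, M1 and M2, against -0.0956, 0.00507, -0.116 and -0.0712 in TDP-43wt. Every mutant was below every control of its region, with differences of -0.10 ± 0.041 and -0.12 ± 0.044 (limma adjusted p 0.297 and 0.25). Gene totals of this kind do not show which exons a transcript holds.

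Of the other class C genes, Dnajc30, a mitochondrial protein, held -0.159, -0.155, -0.205, -0.0691 and -0.152 in hippocampus TDP-43KQ/KQ F1, F2, F3, M1 and M2, against -0.00146, 0.0352, -0.00196 and 0.0145 in TDP-43wt. The mutants were all lower, and the difference of -0.16 ± 0.048 did not pass (limma adjusted p = 0.164), beside -0.07 ± 0.045 in neocortex. Dnajc15, another mitochondrial member, differed by -0.19 ± 0.077 in neocortex (limma adjusted p = 0.301) and by -0.07 ± 0.083 in hippocampus. Dnajc1, of the endoplasmic reticulum membrane, differed by 0.16 ± 0.099 and 0.12 ± 0.106 (limma adjusted p 0.454 and 0.623).

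The BAG genes, nucleotide exchange factors of HSP70, had 3 of 6 above TDP-43wt in each region, and 0 were called. Bag3, which works with Hspb8 to send misfolded proteins to autophagy, held 0.34, 0.312, 0.281, 0.303 and 0.326 in hippocampus TDP-43KQ/KQ F1, F2, F3, M1 and M2, against 0.24, 0.18, 0.181 and 0.126 in TDP-43wt. The groups did not overlap, and the difference was 0.13 ± 0.039 (limma adjusted p = 0.164), against 0.06 ± 0.036 in neocortex, where they overlapped. Bag1, which links HSP70 to the proteasome, held -0.0902 to 0.0563 with a median of 0.0169 in neocortex TDP-43KQ/KQ, against 0.1, 0.283, 0.239, 0.188 and 0.128 in TDP-43wt. All mutants were lower, with a difference of -0.19 ± 0.067 that did not pass (limma adjusted p = 0.25), and in hippocampus it was -0.15 ± 0.072 (adjusted p = 0.353, limma). Bag5, a BAG protein of several domains, differed by -0.06 ± 0.042 in neocortex and by 0.01 ± 0.045 in hippocampus.

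Small heat shock proteins gave the largest hippocampal differences of any members, in Hspb1 and Hspb8, and neither was called. Hspb1 (HSP25 of the mouse) lies on chromosome 5 at 135887919 to 135889563 and Hspb8 on the same chromosome at 116408491 to 116422864. In hippocampus, Hspb8 held 0.672, 0.364, 0.412, 0.42 and 0.633 in TDP-43KQ/KQ F1, F2, F3, M1 and M2, against 0.019, 0.315, 0.146 and 0.237 in TDP-43wt F1, F2, F3 and M1. All 5 mutants were above all 4 controls, highest in F1 and M2, and the difference was 0.32 ± 0.098 (limma adjusted p = 0.174). In neocortex Hspb8 differed by -0.03 ± 0.092, and the difference between the regional effects was 0.35 ± 0.125, with an unadjusted p of 0.0139 and an adjusted p of 0.804 in limma. Hspb1 held 0.426, 0.197, -0.0368, 0.165 and 0.466 in hippocampus TDP-43KQ/KQ F1, F2, F3, M1 and M2, against -0.0854, -0.392, 0.0415 and -0.112 in TDP-43wt F1, F2, F3 and M1. Here too F1 and M2 were the highest, F3 lay among the controls, and TDP-43wt F2 was far below the rest. The difference was 0.38 ± 0.130 (limma adjusted p = 0.211), and without neocortex TDP-43KQ/KQ M1 it was 0.49 and past the threshold (adjusted p = 0.0432). Over 33 alternatives to the main model it ranged from 0.28 to 0.55, with adjusted p from 0.0217 to 0.782 and a call in 4. Apart from the loss of that library, the calls came from fits without fixed litter terms. Those fits do not count the degrees of freedom spent on removing litter. In neocortex Hspb1 differed by 0.06 ± 0.122, and 52.3% of its 31-base stretches recur elsewhere, chiefly in the pseudogene Hsp25-ps1.

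In the family, 5 of 7 small heat shock genes were above TDP-43wt in hippocampus with a median of 0.130, and 5 of 7 in neocortex with a median of 0.022. The mean over the 7 genes was -0.0588 to 0.115 in hippocampal TDP-43KQ/KQ libraries, against -0.133 to -0.0816 in TDP-43wt libraries, without overlap, while in neocortex it was -0.0337 to 0.0511 and -0.0411 to 0.0312. This mean includes Hspb1 and Hspb8, so its separation in hippocampus is not a result apart from theirs. The hippocampal median was 0.062 without hippocampus TDP-43KQ/KQ F1. The neocortical median was 0.001 without neocortex TDP-43wt F1, 0.003 without TDP-43KQ/KQ M1 and 0.043 without TDP-43wt F3, and it also moved without TDP-43KQ/KQ F1, F2 or F3 (0.040, 0.014 and 0.011) and without hippocampus TDP-43KQ/KQ F2 (0.014). Hspb3, a muscle small heat shock protein, was below TDP-43wt in both regions, while Hspb8 was below in neocortex and Hspb2 in hippocampus. The neocortical values of Hspb3 were -0.0555 to 0.0554 with a median of -0.00219 in TDP-43KQ/KQ, against 0.104, 0.128, 0.135, 0.123 and 0.125 in TDP-43wt. The groups did not overlap, and the difference was -0.12 ± 0.051 in neocortex (limma adjusted p = 0.299) and -0.07 ± 0.054 in hippocampus.

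Most markers of vessels, meninges and choroid plexus were also above TDP-43wt in hippocampus, beside the small heat shock genes. Meningeal fibroblast markers were above TDP-43wt for 5 of 5 genes with a median of 0.485, and their mean was 0.414 to 0.853 in TDP-43KQ/KQ libraries, against -0.017 to 0.478 in TDP-43wt libraries. Among them Lum was called (0.51, limma adjusted p = 0.0364). Pericyte and smooth muscle markers were above for 4 of 5 genes with a median of 0.419 (means of 0.268 to 0.551 against -0.204 to 0.511), endothelial markers for 4 of 5 with a median of 0.253 (means of -0.114 to 0.116 against -0.436 to 0.174), and choroid plexus markers for 5 of 5 with a median of 1.09 (means of 0.262 to 4.02 against -0.0568 to 2.36). The endothelial gene Cldn5 went the other way, at -0.301 in hippocampus and -0.347 in neocortex, uncalled in both. Oligodendrocyte markers were below for 5 of 5 genes in hippocampus with a median of -0.307 (means of 0.0309 to 0.344 against 0.353 to 0.570). In neocortex the pericyte and the meningeal medians were 0.071 and 0.105, the endothelial one 0.007 and the choroid plexus one -0.039. There too oligodendrocyte markers were below for 5 of 5 genes, with a median of -0.190 (means of -0.124 to 0.110 against 0.0812 to 0.336), beside the lower values of the HSP90, HSP110, class A and CCT genes. Astrocyte and microglia markers were likewise below in neocortex for 5 of 5 genes each, with medians of -0.112 and -0.090. In hippocampus, microglia markers were below for 5 of 5 genes (median -0.146) and astrocyte markers for 4 of 5 (-0.016). Neuron markers were below TDP-43wt in hippocampus for 5 of 5 genes with a median of -0.118. Their means did not overlap (-0.367 to -0.231 in TDP-43KQ/KQ against -0.194 to -0.114 in TDP-43wt). The means of dentate and CA neuron markers in hippocampus were apart by a narrow margin (1.576 to 1.639 against 1.642 to 1.768). Of those 5 genes, 3 were below TDP-43wt and 2 above. The part of these cells in the values of Hspb1, Hspb8 and the other members was not tested. In pieces of tissue such as these, more cells of a type and more RNA per cell cannot be told apart.

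**Figure D3:**
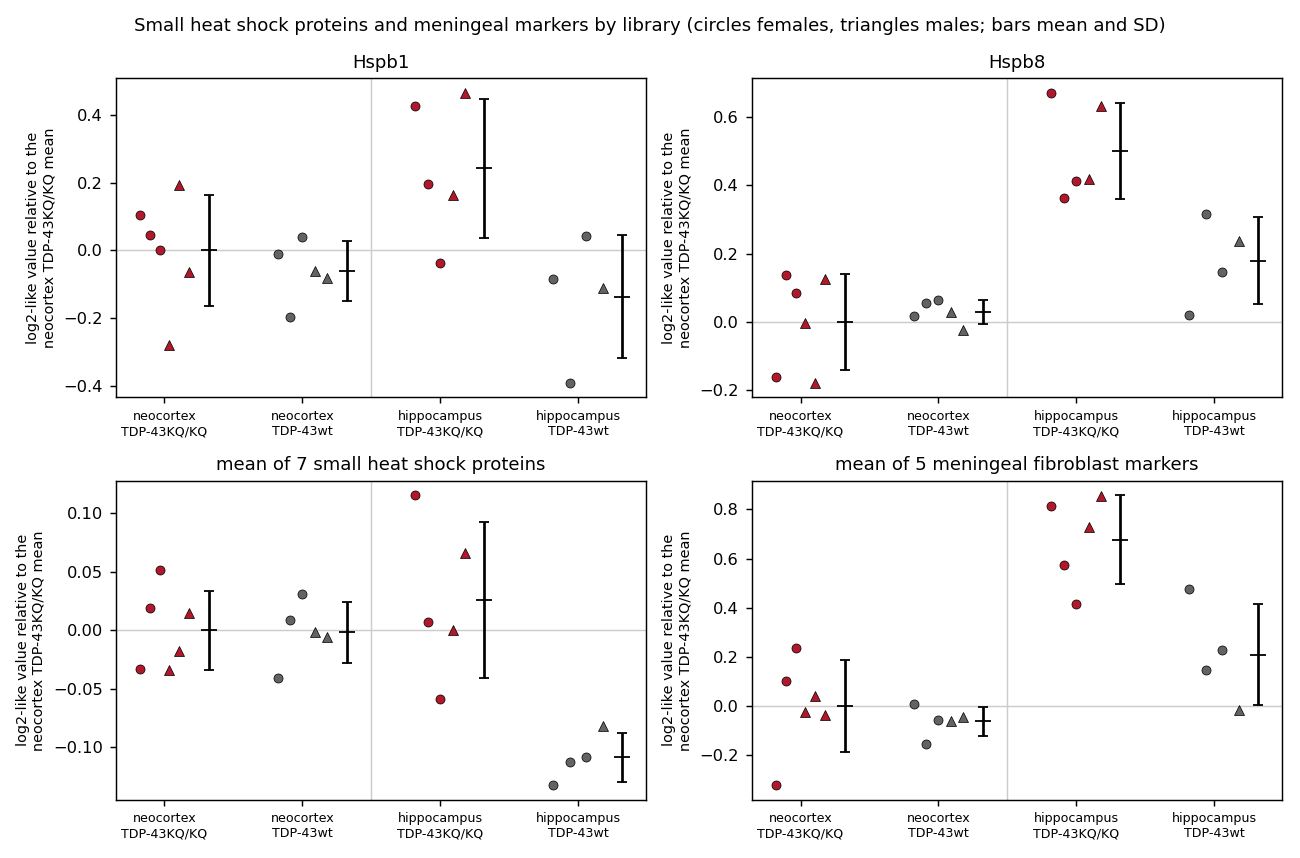
Small heat shock genes and meningeal markers in each library (y axis, log2-like value relative to the neocortex TDP-43KQ/KQ mean; x axis, the 4 groups; circles females, triangles males, bars mean and SD). In hippocampus the TDP-43KQ/KQ libraries reach 0.672 for Hspb8 and 0.466 for Hspb1, and the meningeal markers are also higher there.

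The chaperonins were mostly below TDP-43wt in neocortex. Of 9 CCT genes, subunits of the ring that folds actin and tubulin or their relatives, 8 were below with a median of -0.106 and 0 were called, and in hippocampus 7 were below with a median of -0.028. By symbol, the neocortical differences were -0.15 ± 0.074 for Cct8 and -0.14 ± 0.052 for Cct3, whose groups did not overlap; both were named after their values were seen (limma adjusted p 0.358 and 0.25). The neocortical median was -0.060 without TDP-43KQ/KQ F1 and -0.167 without TDP-43wt M2, and the hippocampal one was 0.024 without TDP-43wt F2. The mitochondrial chaperonin pair Hspd1 (HSP60) and Hspe1 (HSP10) was below in neocortex with a median of -0.123 and above in hippocampus with a median of 0.037. The neocortical median was -0.075 without TDP-43KQ/KQ F1. The hippocampal one turned to -0.007 without TDP-43wt F3, and was 0.005 without neocortex TDP-43KQ/KQ M1, 0.012 without TDP-43wt F1, 0.014 without TDP-43KQ/KQ F3 and 0.103 without TDP-43wt F2, so its sign rests on single libraries. For Hspd1, 50.1% of the 31-base stretches recur elsewhere.

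The heat shock factors differed less than the small heat shock proteins in hippocampus, and none passed the test. All 5 were above TDP-43wt in neocortex with a median of 0.043, and 3 of 5 in hippocampus with a median of 0.021. The neocortical median was 0.020 to 0.023, with 4 of 5 above, without neocortex TDP-43wt F2 or TDP-43KQ/KQ F1 or M3, and 0.064 without TDP-43wt F3. The hippocampal one turned to -0.014 without TDP-43wt F2 and to -0.009 without TDP-43wt M1, with 2 of 5 above, and over all single-library losses it reached 0.047. Hsf1, the main factor of the heat shock response, held -0.182 to 0.193 with a median of -0.0082 in neocortex TDP-43KQ/KQ, against -0.129 to 0.001 in TDP-43wt, a range that lay wholly inside that of the mutants. It differed by 0.04 ± 0.079 in neocortex and by 0.02 ± 0.084 in hippocampus. Hsf2 differed by 0.01 ± 0.046 and 0.06 ± 0.050, Hsf3 by 0.02 ± 0.070 and -0.03 ± 0.074, and Hsf4, the factor of the lens, by 0.08 ± 0.064 and -0.04 ± 0.069 in neocortex and hippocampus. Hsf5, a testis factor, gave the highest neocortical value, 0.20 ± 0.067 (limma adjusted p = 0.228), and 0.07 ± 0.072 in hippocampus. Activity of Hsf1 is set by its protein, which RNA does not show.

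Chaperone genes outside the families were tested in the same model. Of 32 tested co-chaperones and related genes (among them the HSP90 partners and prefoldin subunits), 25 were below TDP-43wt in neocortex with a median of -0.090, and 19 in hippocampus with a median of -0.020, and 0 were called in either region. Stip1, which joins HSP70 to HSP90, differed by -0.17 ± 0.058 in neocortex (limma adjusted p = 0.232) and by 0.04 ± 0.062 in hippocampus. Cdc37, which brings kinases to HSP90, differed by -0.14 ± 0.050 in neocortex and by -0.09 ± 0.053 in hippocampus. Serpinh1, the collagen chaperone, differed by 0.02 ± 0.120 in neocortex and by 0.37 ± 0.128 in hippocampus (limma adjusted p 0.963 and 0.212). Of 20 genes known to be induced by heat shock, most of them members, 12 were below TDP-43wt in neocortex with a median of -0.089, and 12 were above in hippocampus with a median of 0.040, and 0 were called. At an unadjusted p under 0.05, 4 were above and 7 below in neocortex, and 5 were above and 0 below in hippocampus, that is 55% and 25% of the list against 14.4% and 14.8% of all genes, on a list chosen with results of these data known.

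Between regions, 9 members were called higher and 18 lower in hippocampus than in neocortex of TDP-43KQ/KQ mice, against 17.2% and 18.2% of all genes tested, and 6 higher and 15 lower in TDP-43wt mice, against 13.5% and 14.7% of all genes. Of the 91 members, 16 were called in both genotypes with the same sign, 5 higher (9.81% of all genes) and 11 lower (12.3% of all genes), 11 in TDP-43KQ/KQ alone (13.2% of all genes) and 5 in TDP-43wt alone (6.06% of all genes). These comparisons share no libraries. They do rest on sex and litter terms shared by the regions, and with separate terms for each region only 1 member was called in TDP-43KQ/KQ and 0 in TDP-43wt. Without single libraries 20 to 30 members were called in TDP-43KQ/KQ and 15 to 27 in TDP-43wt. The shares of all genes called in those fits are not given here, so this spread is not a result about the members.

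Hspb3 was among the most different by region. It held -0.384, -0.437, -0.497, -0.368 and -0.557 in hippocampus TDP-43KQ/KQ F1, F2, F3, M1 and M2, against -0.0555 to 0.0554 in neocortex, and -0.475, -0.354, -0.396 and -0.283 in hippocampus TDP-43wt, against 0.104 to 0.135 in neocortex. No hippocampal library reached a neocortical one, and the hippocampus minus neocortex difference was -0.45 in TDP-43KQ/KQ (limma adjusted p = 1.85e-06) and -0.50 in TDP-43wt (limma adjusted p = 2.87e-06). Hsf4 differed by -0.53 in TDP-43KQ/KQ and -0.42 in TDP-43wt, Bag5 differed by -0.24 and -0.31, Dnajb1 by -0.26 and -0.27, and Bag1 by -0.19 and -0.23. The call for Bag1 in TDP-43KQ/KQ was lost without neocortex TDP-43KQ/KQ F2 or F3 or hippocampus TDP-43KQ/KQ F1, F2 or M2, and the call in TDP-43wt without neocortex TDP-43wt F2 or F3 or hippocampus TDP-43wt F1 or F3. On the other side, Hspa2 differed by 0.32 in TDP-43KQ/KQ and 0.45 in TDP-43wt, Dnajc1 by 0.40 and 0.43, Hspa12a, a distant HSP70 relative, by 0.31 and 0.29, Bag3 by 0.31 and 0.24, and Ahsa2 by 0.23 in each. Hspb8 was called between regions in TDP-43KQ/KQ (0.50, limma adjusted p = 0.000223) and not in TDP-43wt (0.15, adjusted p = 0.251), but the difference between these values is the interaction given above, which did not pass after adjustment.

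**Figure D4:**
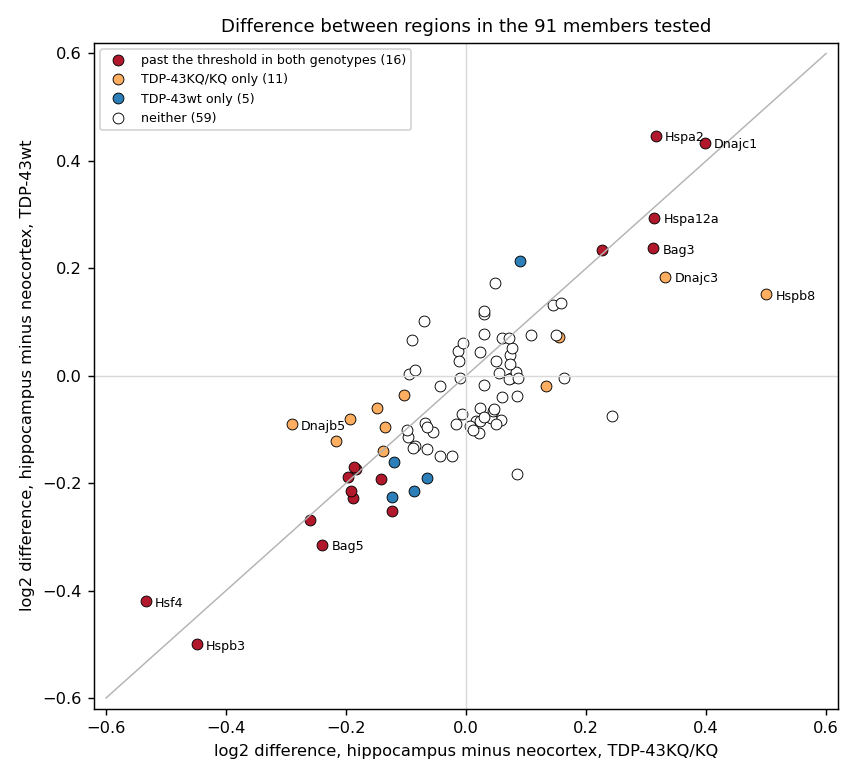
Difference between regions for the 91 tested members (x axis, log2 difference hippocampus minus neocortex in TDP-43KQ/KQ; y axis, the same in TDP-43wt; colours, in which genotypes the member was called). The 16 members called in both genotypes, counted only where the sign was the same, run from Hspb3 and Hsf4 at the lower left to Dnajc1 and Hspa2 at the upper right.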

How the data were processed

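Total RNA was sequenced from neocortex and hippocampus of 18-month-old mice (KAPA Total with Ribo-Erase). After adapter trimming by cutadapt, the authors mapped reads to mm10 (STAR 2.5.2b), quantified transcripts with Salmon and deposited log2-like values from the variance stabilising transformation of DESeq2 1.34.0 (R 4.1.0), from which they had removed sex and litter with limma. The largest sex or litter coefficient left in the values was 4.76e-08. Each gene of the table is centred on the neocortex TDP-43KQ/KQ mean, 4383 genes are 0 in every column, and neither counts nor depth can be recovered, so no interval for counting error is given. Such a removal makes a test that ignores it too sensitive.

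Here limma 3.58.1 (R 4.3.3, statmod 1.5.0) was fitted to all 20 libraries with 4 groups plus sex and litter shared by both regions, which leaves 11 residual degrees of freedom. Genes at the floor of the transformation (values tied within 1e-06 in libraries of the same sex and litter) were left out, and 17863 were tested. Calls need a Benjamini-Hochberg adjusted p under 0.05 over all of them. Log2 differences carry the SE of the model. The code was tested on simulated data. Promoter windows, positions and shared stretches were read with Python 3.11.15 and pandas 2.3.3 from RefSeq GRCm38.p6 and from the GENCODE annotation. Nothing in the labels says which samples came from separate extractions, so p-values measure the spread between these libraries.

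The members, gene lists and tests were chosen with earlier results of these data known. Named members are those called by genotype, 8 inducible heat shock genes, the HSP90, AHSA and HSF families, the 3 largest differences each way per region, the 5 largest regional differences each way among those called in both genotypes, and those separating the genotypes in both regions, 31 in all. Marker lists for neurons (medians by genotype of 0.004 in neocortex and -0.118 in hippocampus), astrocytes (-0.112 and -0.016), microglia (-0.090 and -0.146), ependyma (-0.089 and 0.049), dentate and CA neurons (-0.087 and -0.223) and immediate early genes (-0.115 and -0.104) had 0 genes called. The 6 females and their litters and numbers agree between regions, which the labels do not say were the same mice; deviations of these pairs correlated from -1 to 0.722. Replicate numbers across genotypes did not pair libraries (r from -0.604 to 0.117). Alternatives were other sets of covariates, replicate blocks, filters and the loss of single libraries.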

Additional observations from a re-analysis of the deposited data

Results flagged for a closer look

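Of 124 groups of values examined for the named members, 1 held a library far from the others. The rule flags about 1 group in 20 of independent values. The removal of sex and litter ties these values to each other, so that rate is no yardstick here. Hspa12a, a distant relative of HSP70, was at 0.254 in hippocampus TDP-43KQ/KQ M1, while the other 4 TDP-43KQ/KQ libraries of that region lay between 0.323 and 0.332. The 4 hippocampal TDP-43wt libraries ran from 0.236 to 0.343, so this library was apart from its own group and within the range of the controls.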

How the results depend on the processing

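Counts of called genes depended on the covariates. In the following, each pair gives members and then all genes called. By genotype in neocortex (1 and 40), they were 0 and 7 with each region fitted alone, 20 and 2381 with group alone, 17 and 1812 with group and sex, 20 and 2396 with litter as a random effect, and 0 and 6 with each region given its own sex and litter terms. By genotype in hippocampus (1 and 69), they were 0 and 0 with the region alone, 11 and 2077 with group alone, 10 and 1584 with group and sex, and 11 and 2114 with litter random. The fits without fixed litter terms do not count the degrees of freedom already spent on the removal. Without both TDP-43wt F2 libraries, chosen after seeing the data, they were 0 and 17 in neocortex (Ahsa2 0.26, adjusted p = 0.0705) and 0 and 41 in hippocampus (Ahsa2 0.23, adjusted p = 0.121). A stricter filter gave 66 of all genes in neocortex. The difference between regional effects gave 69 of all genes with group alone. Between regions, separate terms gave 1 and 765 in TDP-43KQ/KQ and 0 and 455 in TDP-43wt. In TDP-43wt, group alone gave 37 and 7562. Group and sex gave 33 members, as did litter random, and the counts of all genes for these fits are not given here.

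With the 6 females as a replicate block (correlation 0.274), 0 members were called in hippocampus, and likewise with TDP-43KQ/KQ M2 joined too (0.226), a version added after seeing the data. A replicate block of sex and number within region, which the numbers do not warrant, gave 14 and 1856 in neocortex and 0 and 0 in hippocampus. The 2 blocks that joined mice across regions changed no other call of a named member. With the 6 females joined they gave 36 and 51 of all genes by genotype in neocortex and hippocampus, and 31 and 26 members between regions in TDP-43KQ/KQ and TDP-43wt, against 27 and 21. The counts of all genes between regions in that fit are not given here, so the rise is not a result about the members.

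For Ahsa2, 13 settings other than single-library losses gave 0.24 to 0.26 in neocortex (adjusted p 8.61e-05 to 0.178, called in 10) and 0.23 to 0.30 in hippocampus (0.000252 to 0.263, called in 8). Those calls include the fits without fixed litter terms and, in neocortex, the block of sex and number that the numbers do not warrant. Without single libraries, neocortical counts ran from 0 to 1 member and from 7 to 123 of all genes, and hippocampal ones from 0 to 2 members and from 8 to 137. Of 2666 recomputed values of 82 named results, 2481 kept their sign and their side of the threshold, 75 passed the threshold only under the alternative, 60 lost it, and 22, all uncalled, moved by more than 1 SE. A further 28, all uncalled, changed sign by less than that. In all 29 uncalled values changed sign, and no called value did. The cause was not tested.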

Other observations

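Values of some endoplasmic reticulum chaperones, chosen after they were seen, are given singly, and none was called. Hspa5 (BiP), left out of the members by name, differed by 0.11 ± 0.111 in neocortex and by 0.39 ± 0.118 in hippocampus (limma adjusted p 0.654 and 0.174). Dnajc3, a co-chaperone of Hspa5, differed by 0.06 ± 0.070 in neocortex and by 0.21 ± 0.074 in hippocampus (limma adjusted p 0.691 and 0.224). Dnajb11, another such co-chaperone, differed by -0.03 ± 0.061 and 0.09 ± 0.065, Dnajc10 by -0.08 ± 0.050 and 0.05 ± 0.053, and Dnajb9 by -0.07 ± 0.065 and 0.07 ± 0.069.

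Members with GAANNTTC in a promoter window had a median genotype difference of -0.046 in neocortex (16 tested, 6 above 0) and 0.037 in hippocampus (9 above 0). Members whose windows lack it had medians of -0.012 (57 tested, 28 above 0) and 0.005 (30 above 0). Ahsa2, the called gene, is among those without it.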
